A study of Mus musculus with 37 samples.

Results

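The genes described here are 10 of the 21975 gene identifiers in the expression tables of cortical astrocytes after controlled cortical impact (CCI). They encode proteins by which astrocytes shape synapses, 8 of them secreted or shed into the matrix (Thbs1, Thbs2, Thbs4, Sparc, Sparcl1, Gpc4, Gpc6 and Chrdl1) and the other two phagocytic receptors (Megf10 and Mertk). They were taken by symbol, through the GENCODE vM21 annotation of GRCm38, from both the ipsilateral and the contralateral table, and all 10 were found in both. Astrocytes were collected 4 months after surgery with magnetic beads against the surface antigen ACSA-2, from wild-type mice whose strain is CD31 in the labels and CD1 (males) in the study's methods. The ipsilateral table holds 5 sham, 10 PTE- and 4 PTE+ libraries and the contralateral table holds 5, 9 and 4 in that order, where PTE+ marks injured mice that developed post-traumatic epilepsy and PTE- injured mice that did not. Sham mice had the craniectomy and, like the injured mice, the recording electrodes, so every group shares electrode implantation, and no group is free of surgery. Both hemispheres were present for 17 mice (5 sham, 9 PTE- and 3 PTE+), and each library is 1 hemisphere of 1 mouse.

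Thrombospondins (Thbs1, Thbs2 and Thbs4) are secreted matrix glycoproteins that promote the formation of excitatory synapses, and their neuronal receptor is the calcium channel subunit encoded by Cacna2d1. Hevin (Sparcl1) links presynaptic to postsynaptic adhesion proteins and SPARC (Sparc) antagonizes it, the glypicans Gpc4 and Gpc6 recruit AMPA receptors containing the Gria1 subunit, and Chrdl1 promotes the entry of the Gria2 subunit that marks mature synapses. Megf10 and Mertk are receptors with which astrocytes engulf synaptic material.

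The libraries were of like breadth, with 1 exception that bears on the thrombospondins. The ipsilateral library of PTE- mouse 9_14 listed 10727 genes above 0 TPM (transcript abundance scaled for transcript length and library total), against 15599 to 18534 in the other 36, and correlated with the mean of the rest of its group at r = 0.766 across 10874 genes, against at least 0.914 in the others. The main differences between groups whose fits contain it are given with and without it. Summaries of levels, ipsilateral CCI fits without sham mouse 9_11 and most processing alternatives include it. Its mural marker sum (4729 TPM) and its meningeal and fibroblast marker sum (1296 TPM) were the highest of its group. Its neuron (76.6 TPM), oligodendrocyte (774 TPM) and microglia (120 TPM) sums were the lowest. The part of all these in its values was not tested. It has no contralateral partner, so the comparisons of hemispheres do not contain it. Astrocyte markers were abundant: all 12 astrocyte markers were above 0 in every library, and their summed level ranged from 15686 to 22976 TPM, while 12 oligodendrocyte markers summed to 537 to 4482 TPM, 12 microglia markers to 120 to 775 TPM and 10 neuron markers to 52.0 to 939 TPM.

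As members whose values vary widely between libraries, Thbs4 and Thbs2 are shown with their sequence, and the 250 bases before the start annotated by RefSeq (GRCm38.p6) are given for both, which are among the 5 members matched to the promoters used here. Both are written 5′ to 3′ on the gene's own strand, the minus strand. The Thbs4 window is chr13:92794819-92795068 and the Thbs2 window is chr17:14694263-14694512. Capitals mark, on either strand, the GC box letters GGGCGG in the Thbs4 window and the TATA box letters TATAAA in the Thbs2 window.
Thbs4: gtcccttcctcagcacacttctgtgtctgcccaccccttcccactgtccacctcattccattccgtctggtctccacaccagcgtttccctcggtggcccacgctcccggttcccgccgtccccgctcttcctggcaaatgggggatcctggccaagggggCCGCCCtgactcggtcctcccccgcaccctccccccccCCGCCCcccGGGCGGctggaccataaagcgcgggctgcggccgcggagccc
Thbs2: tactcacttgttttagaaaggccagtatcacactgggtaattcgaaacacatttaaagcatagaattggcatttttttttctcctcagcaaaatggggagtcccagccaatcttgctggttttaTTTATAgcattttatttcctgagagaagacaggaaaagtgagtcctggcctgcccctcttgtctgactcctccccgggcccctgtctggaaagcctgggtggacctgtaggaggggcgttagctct
The Thbs4 window holds 3 GC boxes, at positions -89 to -84, -51 to -46 and -42 to -37 from the start, and on neither strand the letters TATAAA, the AP-1 motif TGANTCA or the STAT motif TTCNNNGAA. The Thbs2 window holds 1 TATAAA match, at -126 to -121, and none of the other 3 motifs. Of 32851 RefSeq windows of the same length, 32.7% hold a GC box, 12.4% TATAAA, 6.75% the AP-1 letters and 7.02% the STAT letters. The 2 windows share none of these 4 motifs.

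Levels are given in TPM, which is scaled for transcript length, so genes can be set side by side. Averaged over the 37 libraries, the order was Sparcl1 (3790 ± 392 TPM, SD), Sparc (767 ± 201), Mertk (99.2 ± 25.7), Chrdl1 (54.8 ± 19.6), Gpc6 (25.4 ± 8.52), Gpc4 (16.3 ± 4.77), Thbs4 (11.98 ± 9.18), Megf10 (8.58 ± 3.33), Thbs2 (4.09 ± 4.53) and Thbs1 (0.480 ± 0.508). The SPARC family thus stood far above the rest. The lowest Sparcl1 library (2872 TPM) lay above the highest Sparc library (1345 TPM), and the lowest Sparc library (469 TPM) above the highest Mertk library (170 TPM). Mertk exceeded Chrdl1, and Thbs2 exceeded Thbs1, in all 37 libraries, Chrdl1 exceeded Gpc6 in 35 and Gpc6 exceeded Gpc4 in 36. Further down the order was less fixed: Gpc4 exceeded Thbs4 in 28 libraries, Megf10 exceeded Thbs2 in 32, and Thbs4 exceeded Megf10 in only 19 of 37. Relative to its mean Sparcl1 varied least, and the 3 thrombospondins varied most.

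**Figure D1:**
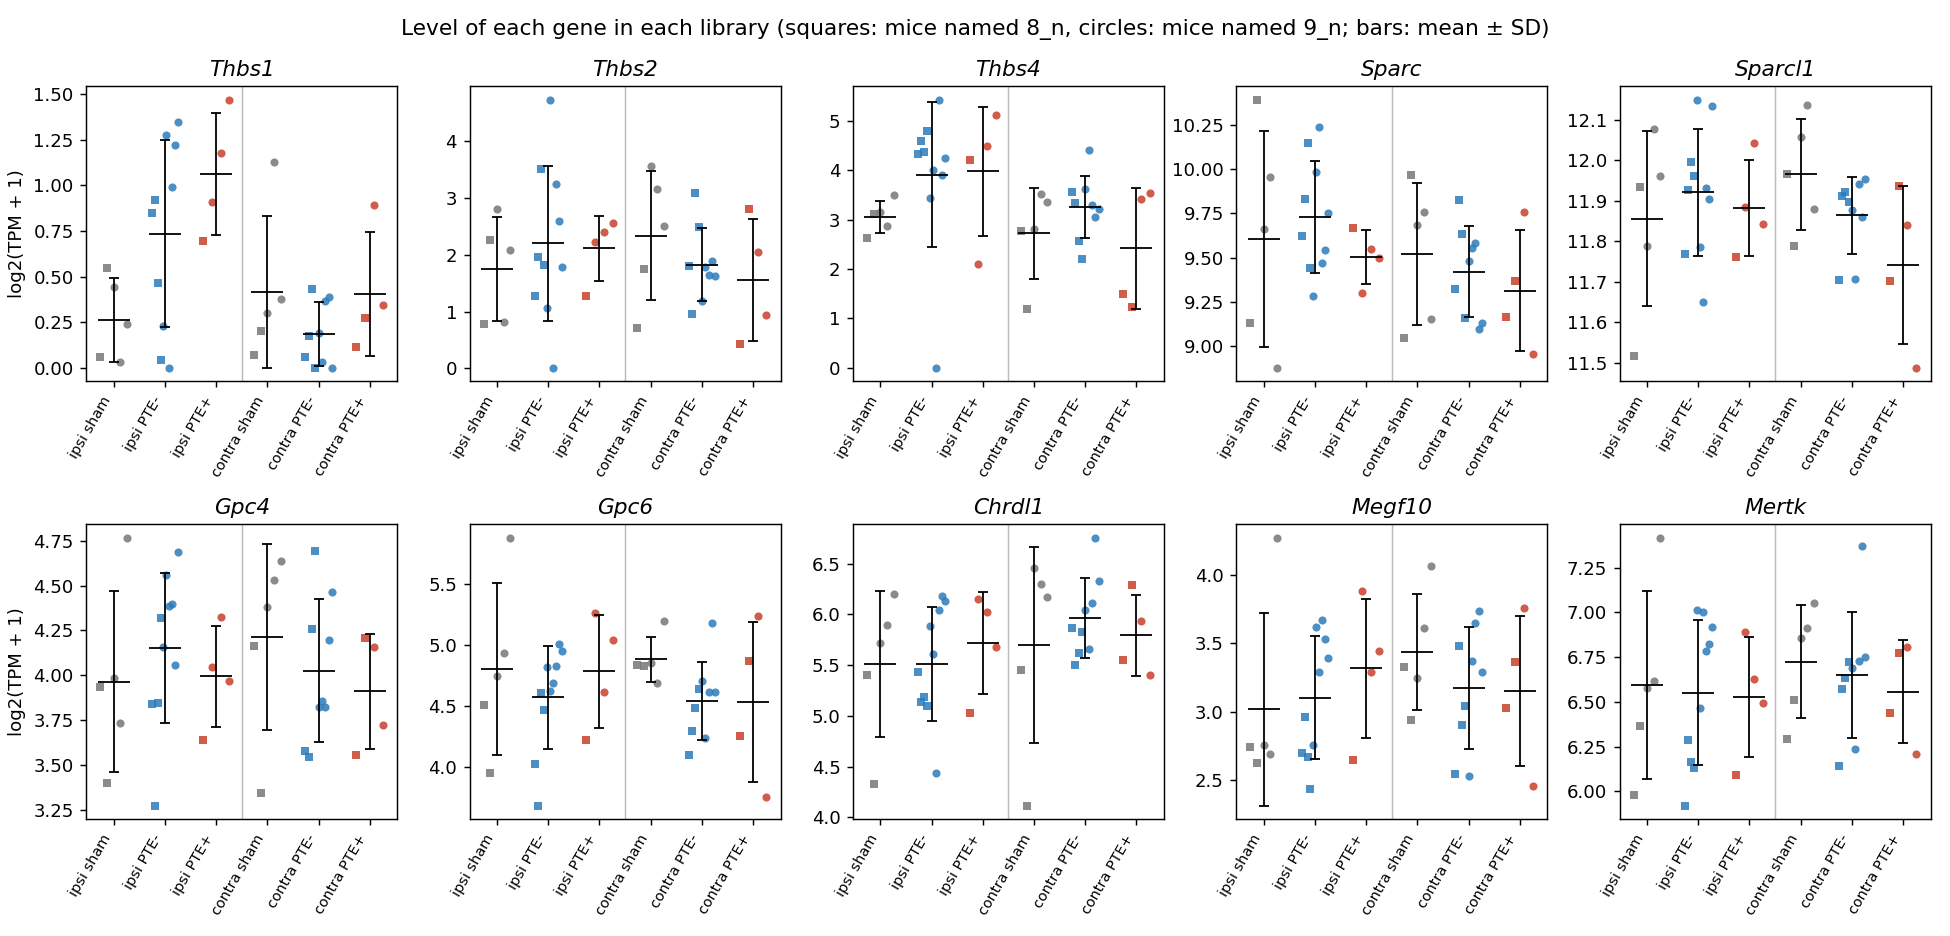
Level of each of the 10 genes as log2(TPM + 1) in every library, by hemisphere and outcome, with 1 point per library (squares for mice named 8_n, circles for mice named 9_n) and bars for the mean ± SD. Vertical scales differ between genes. The 4 ipsilateral PTE+ libraries lie above every ipsilateral sham library for Thbs1, and 11 of 14 ipsilateral injured libraries do so for Thbs4. The shares of all genes that separate in these ways are not given.

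To ask how injury and epilepsy relate to these genes, log2(TPM + 1) was compared with limma over all genes with a mean above 5 TPM in a group. Following the study's thresholds, a gene is said to be called where its unadjusted p was under 0.05 and the change reached 1.2-fold, and Benjamini-Hochberg adjusted p-values over all tested genes are given beside it. Within a hemisphere, none of the 8 or 9 members that passed the filter was called in any of the 8 comparisons. With the first number of the mouse name as a covariate, Thbs4 was called in contralateral PTE+ against PTE- (-0.77 ± 0.34, limma adjusted p = 0.9997) and Gpc6 in contralateral PTE- against sham (-0.33 ± 0.15, limma adjusted p = 0.914), where 3.16% and 4.21% of all genes were called. Over all genes, the shares called ipsilaterally were 1.62% (CCI against sham), 0.573% (PTE+ against PTE-), 1.54% (PTE- against sham) and 1.56% (PTE+ against sham), and contralaterally 4.05%, 2.79%, 3.76% and 1.97%. At these shares fewer than 1 call among 9 genes is the background. No member that passed the filter had an unadjusted limma p under 0.05 in any of these 8 comparisons, and at an adjusted p under 0.05 the share over all genes was 0 in each. Thbs1 passed the filter in no comparison, and Thbs2 missed it in ipsilateral PTE+ against sham and contralateral PTE+ against PTE-. The comparisons with sham share the same sham libraries.

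Thbs4 (GRCm38 chr13:92751590-92794818, minus strand, like all members a protein-coding gene) encodes thrombospondin 4. It was at 5.2, 7.68, 7.92, 6.36 and 10.35 TPM in the ipsilateral sham libraries. The PTE- libraries ranged from 0 over a median of 18.6 to 42.2 TPM, and the PTE+ libraries were at 17.63, 3.32, 21.58 and 33.79 TPM. Thus 11 of 14 injured libraries lay above every sham library, and the 2 below every sham library were those of PTE- mouse 9_14, at 0 TPM, and PTE+ mouse 9_17, at 3.32 TPM. Mean levels were 7.50 ± 1.93 TPM in sham (SD, n = 5), 18.8 ± 11.1 in PTE- (n = 10) and 19.1 ± 12.6 in PTE+ (n = 4).

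On the log2(TPM + 1) scale the ipsilateral difference in Thbs4 between CCI and sham was 0.88 ± 0.59 (SE, limma unadjusted p = 0.151, adjusted p = 0.9997, exact permutation p = 0.184, two-sided, over 11628 splits). Without PTE- mouse 9_14 it was 1.18 ± 0.35 (95% interval 0.46 to 1.91, limma unadjusted p = 0.00279, adjusted p = 0.606, exact permutation p = 0.00782 over 8568 splits), and the gene was called, where 3.83% of all genes were. PTE- against sham moved in the same way, from 0.86 ± 0.62 (limma unadjusted p = 0.186) to 1.29 ± 0.26 without that mouse (limma unadjusted p = 0.000117, adjusted p = 0.245, exact permutation p = 0.000999 over 2002 splits), against 3.98% of genes called. PTE+ against sham gave 0.93 ± 0.49 (limma unadjusted p = 0.0821, exact permutation p = 0.167), and 1.55 ± 0.28 without PTE+ mouse 9_17 (limma unadjusted p = 0.000173, adjusted p = 0.99995), where 1.37% of genes were called. Mouse 9_17 was left out as each sham and PTE+ mouse was in turn, and its library correlated with the rest of its group at r = 0.977. PTE+ and PTE- differed by 0.07 ± 0.77, with a 95% interval from -1.57 to 1.71 that spans more than the difference from sham, and by -0.36 ± 0.43 (interval -1.29 to 0.56) without mouse 9_14, where 1.89% of genes and no member were called.

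In the contralateral cortex Thbs4 was at 5.83, 1.28, 6.02, 10.45 and 9.2 TPM in sham, from 3.63 over a median of 8.87 to 20.5 TPM in PTE-, and at 1.83, 1.35, 9.73 and 10.6 TPM in PTE+. The groups overlapped throughout. In such bulk libraries fewer cells of a type and less RNA per cell cannot be told apart. PTE+ against PTE- gave -0.83 ± 0.44 (limma unadjusted p = 0.0779, exact permutation p = 0.138). The 2 low PTE+ libraries were mice 8_10 and 8_17 and the 2 high ones mice 9_17 and 9_18. Within mice named 8_n the difference of the means was -1.55 (2 PTE+ against 4 PTE- libraries), and within mice named 9_n it was -0.05 (2 against 5). For the ipsilateral difference between CCI and sham the corresponding values were 1.59 (5 injured and 2 sham libraries) and 0.46 (9 and 3, with mouse 9_14 among the 9), and the latter was 0.92 without mouse 9_14. What the first number of a mouse name stands for is not given in the sources used here.

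Thbs1 (chr2:118111876-118127133, plus strand), which encodes thrombospondin 1 and was the lowest of the 10, stayed under 1.8 TPM in every library. In the ipsilateral cortex the sham libraries were at 0.04, 0.46, 0.36, 0.02 and 0.18 TPM and the PTE+ libraries at 0.62, 0.88, 1.26 and 1.77 TPM, without overlap. The share of all genes that separate in this way is not given here, so the separation has no background. PTE- libraries ranged from 0 over a median of 0.845 to 1.55 TPM, and 6 of 10 lay above every sham library. Contralaterally, sham was at 0.05, 0.15, 0.23, 1.19 and 0.3 TPM, PTE- between 0 and 0.35 with a median of 0.13 TPM, and PTE+ at 0.08, 0.21, 0.86 and 0.27 TPM.

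Ipsilateral CCI against sham gave 0.57 ± 0.23 for Thbs1 (exact permutation p = 0.0252 over 11628 splits), PTE+ against sham 0.80 ± 0.19 (exact permutation p = 0.00794, the smallest that 126 splits can give) and PTE- against sham 0.47 ± 0.24 (exact permutation p = 0.0786). Without PTE- mouse 9_14, at 0 TPM, the first was 0.63 (exact permutation p = 0.00945) and the last 0.55 (exact permutation p = 0.0370). With no TPM filter Thbs1 was called in CCI against sham (limma adjusted p = 0.999, 1.9% of genes called) and in PTE+ against sham (limma adjusted p = 0.999, 2.02% of genes called) but not in PTE- against sham (1.83% of genes called). With no TPM filter and without mouse 9_14 it was called in CCI against sham (limma adjusted p = 0.750) and in PTE- against sham (limma adjusted p = 0.998), where 3.67% and 3.66% of genes were. Contralaterally the CCI difference was -0.16 ± 0.16 (exact permutation p = 0.31). At these levels the reads behind a value may be few, and TPM do not show how many. Exact tests were made for 10 genes in 13 comparisons (130 tests) and again in 2 of them without mouse 9_14 (20 tests), 150 in all, with no adjustment over them. The size of the Thbs1 difference depends on the scale, and its value in ipsilateral CCI against sham was 1.47 with a pseudocount of 0.1 and 2.03 as the log2 ratio of the group mean TPM, or 1.69 and 2.13 without mouse 9_14.

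Thbs2 (chr17:14665500-14694235, minus strand), which encodes thrombospondin 2, spread over a wide range in every group. Its ipsilateral sham libraries were at 0.71, 3.8, 5.99, 0.76 and 3.26 TPM, its PTE- libraries between 0.01 (mouse 9_14) and 25.5 TPM with a median of 2.71, and its PTE+ libraries at 1.42, 3.65, 4.28 and 4.91 TPM. Contralaterally the values were 0.64, 2.35, 10.83, 7.96 and 4.68 TPM in sham, 0.94 to 7.45 TPM with a median of 2.45 in PTE-, and 0.35, 6.01, 3.13 and 0.93 TPM in PTE+. All groups overlapped. CCI against sham was 0.43 ± 0.55 ipsilaterally (limma unadjusted p = 0.445) and -0.59 ± 0.43 contralaterally (limma unadjusted p = 0.178), and the contralateral value was 0.70 within mice named 8_n and -1.49 within mice named 9_n.

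Each mouse with both hemispheres gives its own comparison of the injured with the uninjured side. Thbs1 was higher ipsilaterally in 12 of 12 injured mice (9 of 9 PTE- and 3 of 3 PTE+) and in 2 of 5 sham mice. In PTE- the mean paired difference was 0.63 (exact sign-flip p = 0.00391, the smallest that 512 arrangements can give). With no TPM filter it was called there (limma adjusted p = 0.300), where 4.44% of genes were. The differences of the injured mice exceeded those of sham by 0.75 ± 0.27 (exact permutation p = 0.0116 over 6188 arrangements), which was likewise called only with no TPM filter (limma adjusted p = 0.682, 5.31% of genes called). Without sham mouse 9_10, at 0.02 TPM ipsilaterally and 1.19 TPM contralaterally, the value was 0.51 ± 0.25.

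Thbs4 was higher ipsilaterally in 7 of 9 PTE- mice, in 2 of 3 PTE+ mice and in 3 of 5 sham mice. In PTE- mice 8_9, 8_11, 8_13, 8_14, 9_12, 9_13, 9_15, 9_16 and 9_20 the ipsilateral values were 19.15, 23.38, 19.62, 26.99, 9.84, 15.12, 42.19, 14.09 and 18.08 TPM and the contralateral values 10.77, 9.12, 4.94, 3.63, 11.31, 20.45, 8.87, 7.33 and 8.34 TPM. Mice 9_12 and 9_13 were the exceptions. The gene was called in PTE- (1.10 ± 0.34, 95% interval 0.38 to 1.81, limma unadjusted p = 0.00482, adjusted p = 0.265, exact sign-flip p = 0.0156), where 5.99% of all genes were called and 0.135% at an adjusted p. In PTE+ mice the values were 17.63 against 1.83 (8_10), 3.32 against 9.73 (9_17) and 21.58 against 10.6 TPM (9_18), with a mean difference of 0.79 ± 0.59 (limma unadjusted p = 0.200, exact sign-flip p = 0.75). Without mouse 9_17 the PTE+ difference was 1.84 ± 0.62 (limma unadjusted p = 0.00777, adjusted p = 0.9996), and Thbs4, Sparc and Sparcl1 were called, against 2.33% of all genes. In sham it was 0.33 ± 0.46 (limma unadjusted p = 0.483). The injured mice did not exceed sham beyond the spread (0.69 ± 0.55, limma unadjusted p = 0.225, exact permutation p = 0.279), so that the hemispheres are not shown to differ more after injury than after sham surgery for this gene.

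Thbs2 was higher ipsilaterally in 9 of 12 injured mice and in 2 of 5 sham mice. The mean paired difference was -0.59 in sham, 0.62 in PTE- and 0.82 in PTE+, and the injured mice exceeded sham by 1.26 ± 0.51 (95% interval 0.19 to 2.32, limma unadjusted p = 0.0229, adjusted p = 0.742, exact permutation p = 0.0356). Thbs2 was the 1 member of 9 tested that was called in this contrast, where 6.27% of all genes were (608 higher and 63 lower). It passed the filter only through the groups that make the contrast positive, since it averaged 2.90 TPM in ipsilateral and 5.29 TPM in contralateral sham, and 5.76 TPM in ipsilateral and 2.54 TPM in contralateral injured libraries, so its call is no support beyond these levels. Sham mouse 9_10, at 0.76 TPM ipsilaterally and 7.96 TPM contralaterally, had the largest sham difference. Without it the value was 0.82 ± 0.50 (limma unadjusted p = 0.120) and no member was called, against 3.45% of all genes.

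**Figure D2:**
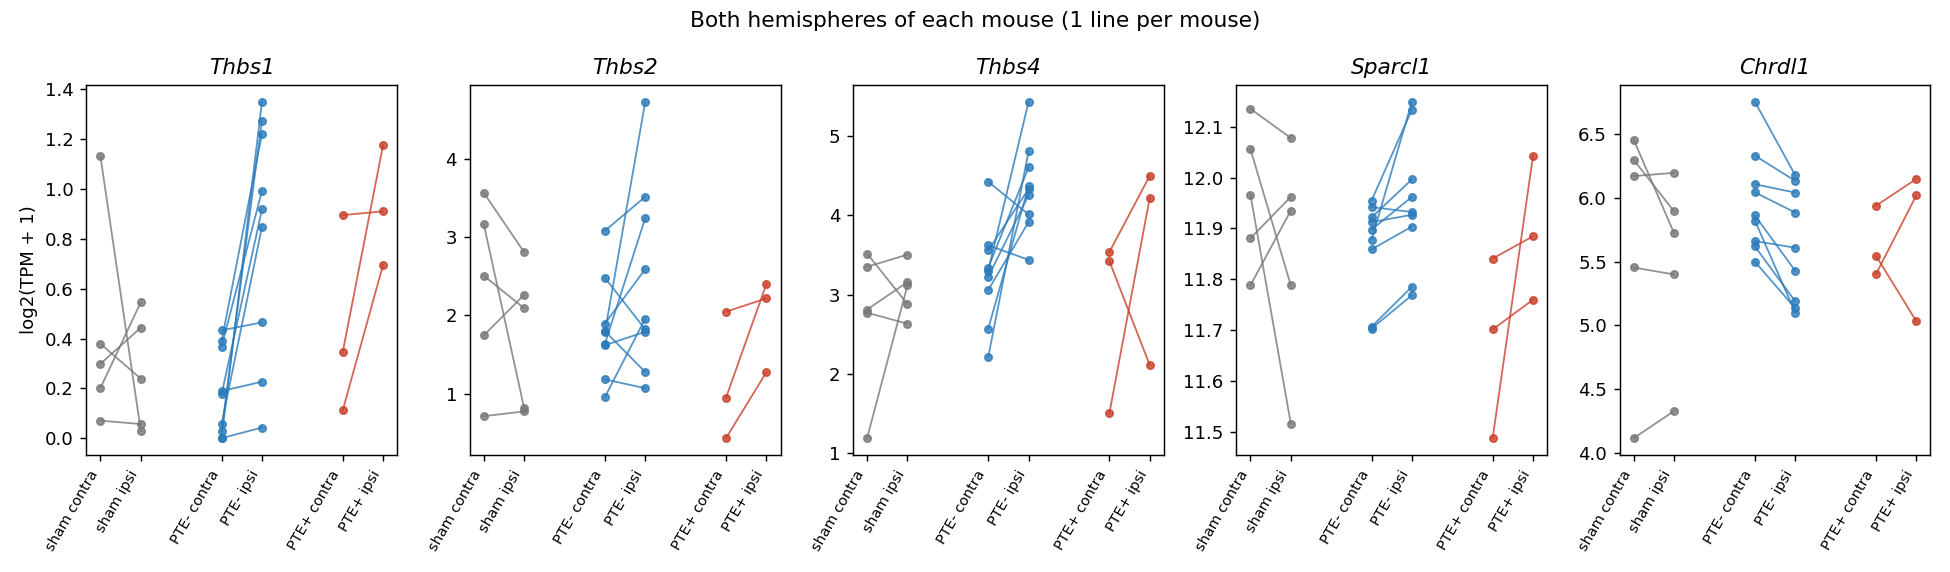
Contralateral and ipsilateral level, as log2(TPM + 1), of 5 of the genes in the 17 mice with both hemispheres, with 1 line per mouse and sham, PTE- and PTE+ mice side by side. The ipsilateral point is the higher one for Thbs1 in 12 of 12 injured mice and for Sparcl1 in 11 of 12, and the lower one for Chrdl1 in 9 of 9 PTE- mice.

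Sparcl1 (chr5:104079111-104113733, minus strand), which encodes hevin, was at 2929, 3915, 3536, 4322 and 3989 TPM in ipsilateral sham, between 3212 and 4540 TPM with a median of 3900 in PTE-, and at 3467, 3781, 4219 and 3672 TPM in PTE+. These groups overlapped, and CCI differed from sham by 0.05 ± 0.09 (95% interval -0.14 to 0.25, limma unadjusted p = 0.575). Contralaterally the sham libraries were at 4001, 3536, 4258, 4497 and 3770 TPM, and all 13 injured libraries (2872 to 3969 TPM) lay below the sham median, with a difference of -0.14 ± 0.09 (limma unadjusted p = 0.152, exact permutation p = 0.0711). Between hemispheres, the ipsilateral value was higher in 11 of 12 injured and 2 of 5 sham mice. The injured mice exceeded sham by 0.23 ± 0.11 (limma unadjusted p = 0.0472, adjusted p = 0.742, exact permutation p = 0.0335), a fold of 1.17 that misses the threshold of 1.2.

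Sparc (chr11:55394500-55423183, minus strand), which encodes the antagonist of hevin, was at 469 to 1345 TPM in ipsilateral sham, 623 to 1209 TPM in PTE- and 630 to 812 TPM in PTE+, so that the injured groups lay within the sham range. CCI differed from sham by 0.06 ± 0.19 ipsilaterally and -0.13 ± 0.16 contralaterally. Without sham mouse 9_11 the ipsilateral value was -0.12 ± 0.19. The highest ipsilateral PTE+ library (812 TPM) was below the PTE- median of 824 TPM, and the PTE+ difference was -0.23 ± 0.16 (95% interval -0.57 to 0.11, limma unadjusted p = 0.170). Sparc was higher ipsilaterally in 7 of 9 PTE- mice (0.25 ± 0.10, limma unadjusted p = 0.0242, adjusted p = 0.467, exact sign-flip p = 0.0430), a fold of 1.19 that also misses the threshold, and in 3 of 5 sham mice.

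Gpc4 (chrX:52053021-52165252, minus strand), a glypican, ranged from 8.67 to 26.2 TPM, and its difference between CCI and sham was 0.14 ± 0.22 ipsilaterally (95% interval -0.32 to 0.61) and -0.22 ± 0.21 contralaterally (interval -0.65 to 0.21). Neither passed the test. Without sham mouse 8_16 the contralateral value was -0.44 and was called. The share of all genes called under that setting is not given here, so this call is no result about Gpc4. Without sham mouse 9_11 the ipsilateral value of Gpc4 was 0.34 ± 0.22 and was not called. Its relative Gpc6 (chr14:116925315-117976544, plus strand) was at 27.63, 27.51, 27.94, 24.8 and 35.68 TPM in contralateral sham, and 7 of 9 PTE- libraries (16.2 to 35.4 TPM, median 23.6) lay below every sham library, whereas the 4 PTE+ libraries were at 18.12, 28.33, 36.66 and 12.54 TPM. The contralateral difference of PTE- from sham was -0.34 ± 0.16 (95% interval -0.68 to 0.00119, limma unadjusted p = 0.0507, adjusted p = 0.961, exact permutation p = 0.0535). Ipsilaterally Gpc6 was at 21.8, 14.5, 25.81, 29.56 and 57.82 TPM in sham, and the difference of CCI was -0.17 ± 0.26 (limma unadjusted p = 0.513). Without sham mouse 9_11, at 57.82 TPM, it was 0.10 ± 0.24.

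Chrdl1 (chrX:143285674-143394262, minus strand), a secreted relative of the BMP antagonist chordin, ranged from 16.3 TPM, in contralateral sham mouse 8_16, to 107 TPM, in contralateral PTE- mouse 9_16. CCI differed from sham by 0.06 ± 0.29 ipsilaterally and 0.21 ± 0.28 contralaterally. In the comparison of hemispheres it was lower ipsilaterally in 9 of 9 PTE- mice, with ipsilateral values of 42.04, 34.12, 35.46, 33.32, 58.08, 47.8, 64.84, 71.38 and 69.17 TPM and contralateral values of 57.18, 44.24, 48.16, 55.56, 64.95, 49.59, 67.91, 106.87 and 79.5 TPM in the order of mice given for Thbs4. The difference was -0.33 ± 0.11 (95% interval -0.56 to -0.11, limma unadjusted p = 0.00608, adjusted p = 0.295, exact sign-flip p = 0.00391), and Chrdl1 was thus the second of 2 members called in PTE-, where 5.99% of all genes were called. It was also lower ipsilaterally in 3 of 5 sham mice and in 1 of 3 PTE+ mice. Neither the contrast of injured mice with sham (-0.03 ± 0.17, limma unadjusted p = 0.849) nor that of PTE+ with PTE- (0.44 ± 0.22, interval -0.01 to 0.89, limma unadjusted p = 0.0570, exact permutation p = 0.0864) passed the test. Without PTE+ mouse 8_10, which leaves 2 PTE+ mice, the contrast of PTE+ with PTE- was 0.75 and was called. The share of all genes called under that setting is not given here, so this call is no result about Chrdl1.

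Megf10 (chr18:57133090-57297467, plus strand), a phagocytic receptor, was at 5.7, 5.16, 5.74, 5.44 and 18.3 TPM in ipsilateral sham, 4.4 to 11.7 TPM (median 7.77) in PTE- and 5.26, 13.72, 8.8 and 9.87 TPM in PTE+. Sham mouse 9_11 stood apart from the other 4. It was also the highest ipsilateral sham library for Gpc4 (26.2 TPM), Gpc6 (57.8), Chrdl1 (72.3) and Mertk (170), had the highest sum of astrocyte (22976 TPM), mural (2481 TPM) and oligodendrocyte precursor markers (76.0 TPM) of that group and the lowest of oligodendrocyte (537 TPM), microglia (121 TPM), endothelial (337 TPM) and neuron markers (148 TPM). The part of these levels in the Megf10 value was not tested. CCI differed from sham by 0.15 ± 0.28 ipsilaterally and -0.27 ± 0.23 contralaterally. Without sham mouse 9_11 the ipsilateral value was 0.46 ± 0.26 (limma unadjusted p = 0.0880), where 4% of all genes and no member were called. Without it Megf10 was called in ipsilateral PTE+ against sham (0.61 ± 0.26, against 0.30 ± 0.37 with it, limma adjusted p = 0.493), where 9.95% of all genes were called, and in injured minus sham mice (0.56 ± 0.23, against 0.40 ± 0.22 with it, limma adjusted p = 0.441), where 10.1% were. In sham mice Megf10 was lower ipsilaterally in 4 of 5 (-0.42 ± 0.18, limma unadjusted p = 0.0326, adjusted p = 0.476, exact sign-flip p = 0.125, where the smallest possible is 0.0625), and it was the 1 member called there, against 8.9% of all genes (57 higher and 887 lower). Of the cell type markers, the astrocyte marker Sox9 (-0.33), the endothelial markers Kdr (-0.62) and Vwf (-0.78), the mural marker Rgs5 (-0.47) and the meningeal and fibroblast markers Lum (-0.69), Slc47a1 and Prg4 were called lower there as well, and their part in the Megf10 value was not tested. The call was lost without sham mouse 8_15 (-0.38), 9_9 (-0.40) or 9_10 (-0.30), with quantile normalization (-0.28) and with median centring (-0.30).

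Mertk (chr2:128698956-128802894, plus strand), a receptor tyrosine kinase whose ligands include protein S, was at 62.14, 81.54, 94.65, 96.99 and 169.93 TPM in ipsilateral sham, from 59.5 over a median of 98.3 to 128 TPM in PTE- and at 67.07, 117.82, 97.89 and 88.99 TPM in PTE+. The groups overlapped, and no comparison between outcome groups gave a limma p under 0.35. The differences from sham were -0.05 ± 0.21 ipsilaterally (95% interval -0.48 to 0.38) and -0.10 ± 0.16 contralaterally (interval -0.44 to 0.23). Without sham mouse 9_11, at 169.93 TPM, the ipsilateral value was 0.16 ± 0.20.

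In PTE+ against PTE- the intervals set how large a difference these data leave possible. For the abundant genes they were narrow: -0.25 to 0.17 for Sparcl1 and -0.57 to 0.11 for Sparc ipsilaterally, and -0.35 to 0.11 and -0.45 to 0.23 contralaterally. For Megf10 the ipsilateral interval was -0.42 to 0.85 and for Chrdl1 -0.43 to 0.85, and for Thbs2 it ran from -1.51 to 1.33. Without mouse 9_14 these ipsilateral intervals were -0.27 to 0.14 (Sparcl1), -0.47 to 0.13 (Sparc), -0.35 to 0.81 (Megf10), -0.43 to 0.60 (Chrdl1) and -1.51 to 0.85 (Thbs2), around differences of -0.07, -0.17, 0.23, 0.09 and -0.33. Ipsilateral CCI against sham was then 0.59 ± 0.48 for Thbs2, 0.02 ± 0.18 for Sparc, 0.07 ± 0.09 for Sparcl1, 0.12 ± 0.21 for Gpc4, -0.18 ± 0.25 for Gpc6, 0.15 ± 0.25 for Chrdl1, 0.14 ± 0.27 for Megf10 and -0.08 ± 0.20 for Mertk, and none of these 8 was called. No member was called in the hemisphere difference of PTE+ mice, or in its contrast with PTE- mice, where 2.69% and 2.63% of all genes were. The medians over the members tested, set beside those of all tested genes, were 0.06 and -0.01 in ipsilateral CCI against sham, -0.03 and 0.12 in ipsilateral PTE+ against PTE-, -0.14 and -0.07 in contralateral CCI against sham, and -0.11 and 0.05 in contralateral PTE+ against PTE-. The member medians without mouse 9_14 were 0.12 in ipsilateral CCI against sham and -0.07 in ipsilateral PTE+ against PTE-, beside 0.03 and 0.08 over all genes.

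**Figure D3:**
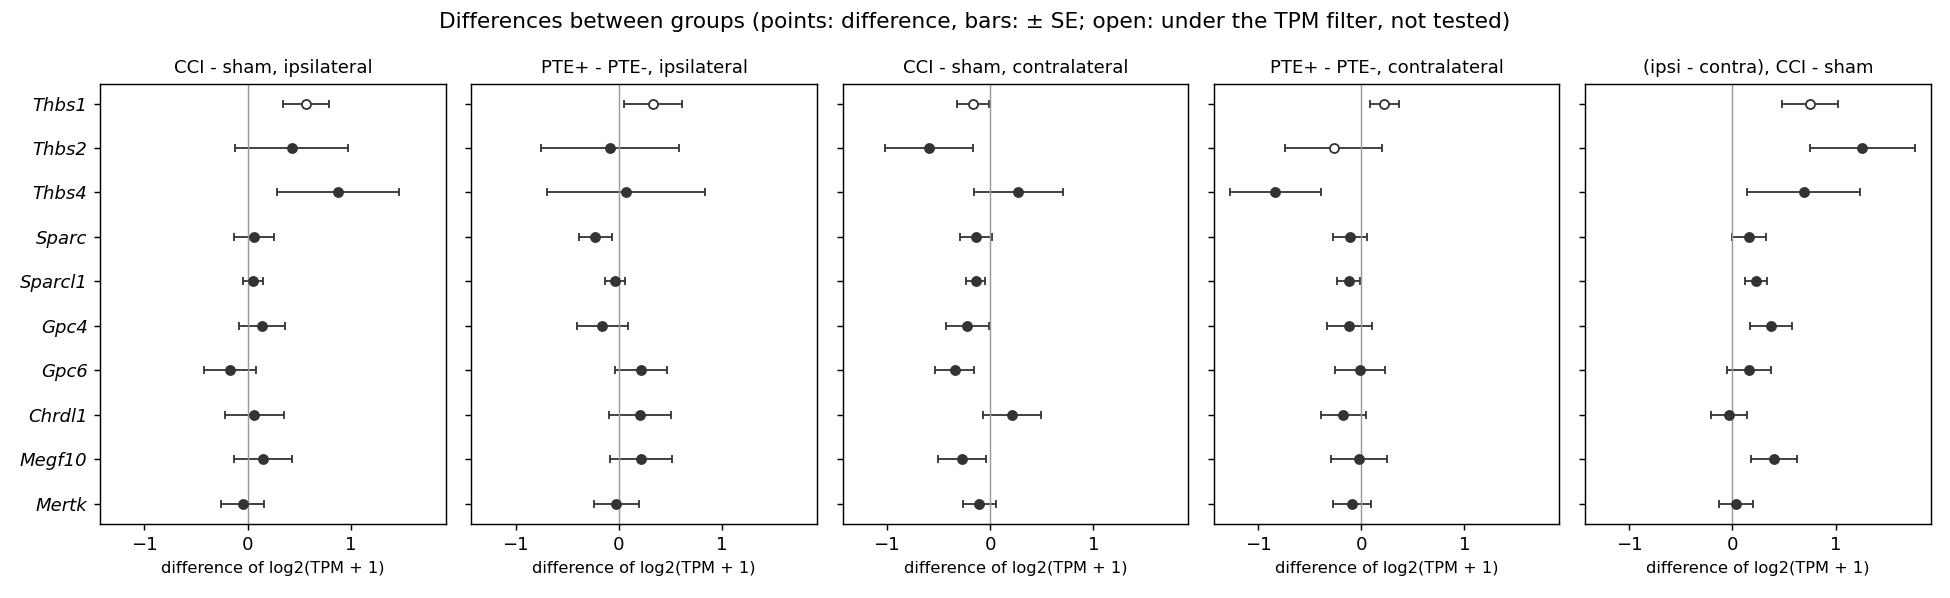
Difference of log2(TPM + 1) of each gene, with its SE, in 5 comparisons: CCI minus sham and PTE+ minus PTE- in each hemisphere, and the hemisphere difference of injured mice minus that of sham mice. Thbs4 (0.88) and Thbs1 (0.57) lie farthest to the right in the ipsilateral CCI panel and Thbs2 (1.26) in the last panel; open points were under the TPM filter and not tested.

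Levels of several members differed by the name of the mouse. This comparison was made after the values were seen, with outcome as a covariate. In ipsilateral libraries, mice named 9_n exceeded mice named 8_n in Mertk (0.68 ± 0.12, limma adjusted p = 0.00756), Gpc6 (0.74 ± 0.17, adjusted p = 0.0223), Chrdl1 (0.73 ± 0.21, adjusted p = 0.0473), Megf10 (0.68 ± 0.21, adjusted p = 0.0568) and Gpc4 (0.52 ± 0.17, adjusted p = 0.0653). These 5 of the 9 tested were called, against 23.7% of all genes, and the first 3 passed an adjusted p under 0.05, against 7.22%. Without mouse 9_14 the values were 0.66, 0.76, 0.88, 0.69 and 0.52, and these 5 were again the members called, against 38.7% of all genes, with all 5 past an adjusted p under 0.05, against 29.2%. Mertk was at 59.5 to 81.5 TPM in the 7 ipsilateral libraries of mice named 8_n and at 87.4 to 170 TPM in the 12 of mice named 9_n, without overlap. The share of all genes without overlap between the names is not given here. Contralaterally Thbs4 (1.12 ± 0.28, limma adjusted p = 0.0762) and Chrdl1 (0.60 ± 0.22, adjusted p = 0.147) were called, against 18.7% of all genes, and no gene passed the adjusted p. The median sum of ipsilateral astrocyte markers was 17236 TPM in mice named 8_n and 19917 TPM in mice named 9_n, and that of neuron markers 521 and 225 TPM. In the same order the ipsilateral medians were 30.8 and 60.7 TPM for oligodendrocyte precursor, 1963 and 1216 TPM for oligodendrocyte, 925 and 618 TPM for endothelial and 1160 and 1661 TPM for mural markers. Contralaterally they were 1211 and 703 TPM for endothelial and 26.7 and 46.1 TPM for oligodendrocyte precursor markers. Their part in the members' values was not tested. The 2 kinds of name are spread over all groups, with 2 and 3 sham, 4 and 6 PTE- and 1 and 3 PTE+ libraries ipsilaterally.

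The hemisphere differences were also set out by mouse name. Among injured mice Mertk was lower ipsilaterally in 5 of 5 mice named 8_n and higher in 6 of 7 named 9_n, with mean differences of -0.38 and 0.10. Megf10 and Gpc6 were each higher ipsilaterally in 1 of 5 and 6 of 7. Thbs1 was higher ipsilaterally in 5 of 5 and 7 of 7, with mean differences of 0.44 and 0.71. Thbs4 was higher in 5 of 5 and 4 of 7, with mean differences of 1.83 and 0.44. Chrdl1 was higher in 0 of 5 and 2 of 7, with mean differences of -0.49 and -0.03, and the difference between the names was not tested.

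**Figure D4:**
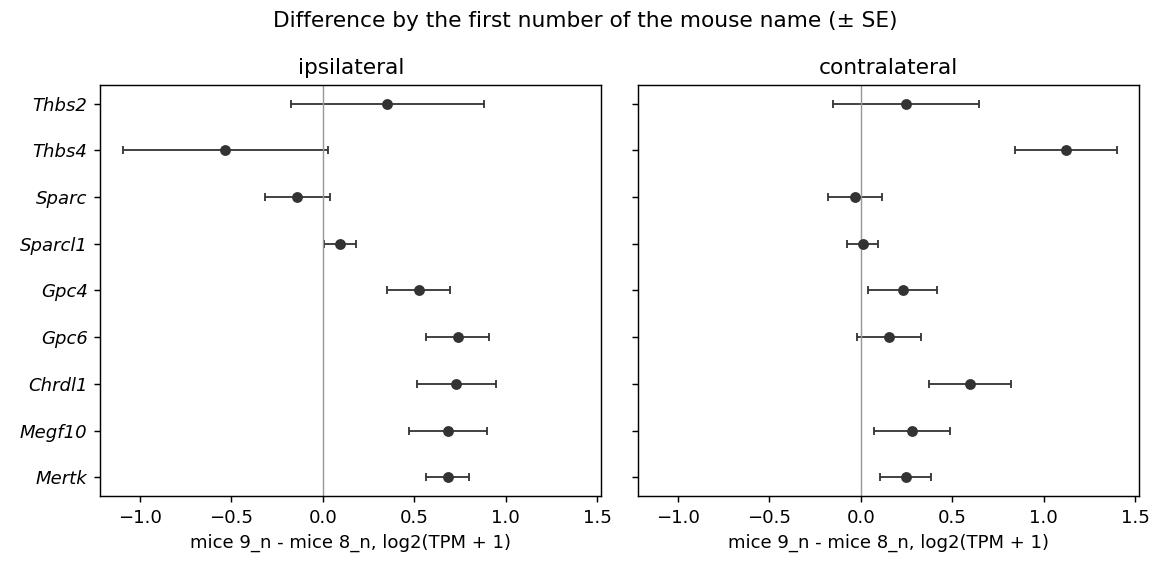
Difference of log2(TPM + 1) between mice named 9_n and mice named 8_n, with its SE and with outcome as a covariate, for the 9 genes that passed the TPM filter, in ipsilateral (12 against 7) and contralateral (10 against 8) libraries. Mertk (0.68), Gpc6 (0.74), Chrdl1 (0.73), Megf10 (0.68) and Gpc4 (0.52) lie right of 0 ipsilaterally, and Thbs4 (1.12) does so contralaterally.

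Partners and relatives of the members were counted in 4 lists. Of 16 relatives and receptors of thrombospondin and SPARC, 10 were tested in ipsilateral CCI against sham and none was called. Between hemispheres Smoc1, a secreted protein with a SPARC-like domain, was higher ipsilaterally in PTE- (0.67 ± 0.17, limma unadjusted p = 0.000707, adjusted p = 0.153) and in PTE+ (0.65 ± 0.29, limma unadjusted p = 0.0367, adjusted p = 0.999), against 5.99% and 2.69% of all genes called, and 2 of the 10 tested, Smoc1 (0.65) and Fstl1 (0.37), were called higher in injured than in sham mice, where 6.27% of all genes were called (608 higher and 63 lower). Fstl1 was also called lower ipsilaterally in sham (-0.35 ± 0.13, limma adjusted p = 0.452), where 8.9% of all genes were called (57 higher and 887 lower).

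Of 14 relatives and receptors of the glypicans and Chrdl1, 12 were tested and 2 were called higher in ipsilateral CCI against sham, where 1.62% of all genes were called. These were Nog, which encodes the BMP antagonist noggin (0.87 ± 0.34, limma unadjusted p = 0.0187, adjusted p = 0.9997), and Gria1, the AMPA receptor subunit that glypicans recruit (0.59 ± 0.25, limma unadjusted p = 0.0257, adjusted p = 0.9997). Gria1 was also called higher ipsilaterally than contralaterally in PTE- (0.53), in PTE+ (0.83) and in injured minus sham mice (0.83), comparisons that called 5.99%, 2.69% and 6.27% of all genes. Nog was called lower ipsilaterally in sham (-0.47), against 8.9% of all genes (57 higher and 887 lower), and higher in injured minus sham mice (0.51). Among the single outcomes, Nog was called higher in ipsilateral PTE- against sham (0.91) and Gria1 in PTE+ against sham (0.79), against 1.54% and 1.56% of all genes. Without mouse 9_14, Nog (0.82) and Gria1 (0.61) were called in CCI against sham and Nog in PTE- against sham (0.84), against 3.83% and 3.98%. Gria2, the subunit linked to Chrdl1, was called lower than sham in the contralateral cortex of CCI mice (-0.52 ± 0.21, limma unadjusted p = 0.0208, adjusted p = 0.978), against 4.05% of all genes, and in PTE- (-0.53) and PTE+ (-0.50) taken alone, against 3.76% and 1.97%. Ptprs, a neuronal receptor of heparan sulfate chains, was called higher ipsilaterally in PTE- (0.32), where the share over all genes was 5.99%.

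Of 21 phagocytic receptors, bridges and engulfment adaptors, 19 were tested in ipsilateral CCI against sham and none was called. In the contralateral cortex, where 4.05% of all genes were called (57 higher and 371 lower), 2 of 20 were called lower than sham, the adaptor Gulp1 (-0.32 ± 0.15, limma unadjusted p = 0.0425, adjusted p = 0.978) and the integrin subunit Itgav (-0.57 ± 0.27, limma unadjusted p = 0.0477, adjusted p = 0.978). Both were also called lower ipsilaterally than contralaterally in sham (-0.48 each), as was Pros1, which encodes protein S (-0.36), where 8.9% of all genes were called (57 higher and 887 lower), and the injured minus sham contrast was higher for Pros1 (0.47) and Gulp1 (0.40), against 6.27% of all genes (608 higher and 63 lower). Of 18 other astrocyte cues to synapses, 12 were tested, and Ptx3, a secreted pentraxin, was called higher than sham contralaterally (0.52 ± 0.19, limma unadjusted p = 0.0144, adjusted p = 0.978) and higher ipsilaterally than contralaterally in PTE- (0.47), against 4.05% and 5.99% of all genes. It was also called in contralateral PTE- against sham (0.52, 3.76% of all genes), and without mouse 9_14 in ipsilateral CCI (0.89 ± 0.24) and PTE- against sham (0.94 ± 0.28), against 3.83% and 3.98%. Timp3, an inhibitor of metalloproteinases, was called lower ipsilaterally in sham (-0.27, 8.9% of all genes). Without mouse 9_14 the phagocytic receptor Tyro3 was called higher in ipsilateral PTE+ against PTE- (0.42), where 1.89% of all genes were. Il33, a cytokine that directs microglial engulfment of synapses, was called lower ipsilaterally in PTE- (-0.28 ± 0.07, limma unadjusted p = 0.0012, adjusted p = 0.18), and its hemisphere difference was called higher in PTE+ than in PTE- mice (0.32), against 5.99% and 2.63% of all genes.

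Cell type markers were called in several of these comparisons. In ipsilateral CCI against sham, Gfap (1.18 ± 0.29) and Aqp4 (0.39 ± 0.17) of 12 astrocyte markers were called higher and 6 of the 11 oligodendrocyte markers tested were called lower, with a median of -1.23 over those tested. In ipsilateral PTE+ against PTE-, 7 oligodendrocyte markers were tested, with or without mouse 9_14. The others of the 11 thus passed the filter only through sham. This count and median, and the later counts against ipsilateral sham, are no support beyond the levels of these markers. The summed oligodendrocyte markers were at 537 to 4482 TPM in sham, 774 to 2291 TPM in PTE- and 1213 to 2353 TPM in PTE+. No microglia, endothelial, mural, neuron or meningeal and fibroblast marker was called in that comparison. Without mouse 9_14, where Thbs4 was called, Gfap (1.32 ± 0.20, limma adjusted p = 0.0212), Aqp4 (0.42), the microglia markers Trem2 (1.26) and Fcrls (0.95), the oligodendrocyte precursor marker C1ql1 (0.95) and Slc47a1 (1.33) were called higher and 6 of 11 oligodendrocyte markers lower. In ipsilateral PTE- against sham, Gfap (1.14 ± 0.31) was called higher and 6 of 11 oligodendrocyte markers lower. Without mouse 9_14, where Thbs4 was called in PTE- too, the markers called higher included Gfap (1.33 ± 0.19), Trem2 (1.44) and Fcrls (1.03). Those called lower included the oligodendrocyte markers Mog (-1.72), Mag (-1.39) and Ermn (-0.92). In ipsilateral PTE+ against sham, Gfap (1.29 ± 0.27), Aqp4 (0.56) and C1ql1 (1.28) were called higher. The median over the 6 oligodendrocyte precursor markers tested was 0.45. In ipsilateral PTE- against sham only 4 of these markers were tested. The others thus passed the filter only through the PTE+ libraries, and the median is no support beyond their levels. Without PTE+ mouse 9_17, Gfap (1.42) and C1ql1 (1.35) were called in PTE+ against sham.

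In contralateral CCI against sham, in which Gria2, Gulp1, Itgav and Ptx3 were called, the markers Prg4 (-1.27) and Slc47a1 (-1.37) were called lower and Igfbp2 (0.41) and Trem2 (0.73) higher. Of the meningeal and fibroblast markers, 9 were tested there and 7 in contralateral PTE+ against PTE-. The others thus passed the filter only through sham. Prg4, with a median of 0.7 TPM over all libraries, may be among them, and its calls against sham are no support beyond its levels. In contralateral PTE- against sham, Vwf (-0.68), Slc47a1 (-1.83) and Prg4 (-1.24) were called lower and Igfbp2 (0.41) higher, and the same 4 were called with the mouse name as a covariate, where Gpc6 was. In contralateral PTE+ against sham, the endothelial marker Cldn5 (0.77) was called higher. In contralateral PTE+ against PTE-, the endothelial markers Pecam1 (0.78) and Tek (0.80), Slc47a1 (1.49) and the neuron marker Stmn2 (0.64) were called higher, with a median of 0.72 over the 9 endothelial markers tested. With the mouse name as a covariate, where Thbs4 was called, Pecam1 (0.79), Tek (0.80) and Slc47a1 (1.49) were called higher and Sox9 (-0.40) and the oligodendrocyte marker Aspa (-0.36) lower.

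In the comparison of hemispheres in PTE-, in which Thbs4 and Chrdl1 were called, Gfap was higher ipsilaterally (1.25 ± 0.21, limma adjusted p = 0.0146) and 4 of 9 oligodendrocyte markers tested were called lower. In ipsilateral PTE+ against PTE- without mouse 9_14, 7 of that list were tested. The others of the 9 passed the filter only through contralateral libraries, so the count is no support beyond their levels. Of the meningeal and fibroblast markers tested, Slc47a1 was called higher (1.69 ± 0.45) and Igfbp2 lower (-0.30), and the microglia marker Tyrobp (0.49), the neuron marker Gad1 (0.31) and the oligodendrocyte precursor marker C1ql1 (0.54) were called higher. The mural markers Rgs5 (-0.44) and Acta2 (-0.61) and the endothelial marker Ly6c1 (-0.48) were called lower. In the contrast of injured with sham mice, in which Thbs2 was called, Gfap (1.42 ± 0.33), Aqp4 (0.43) and Gad1 (0.54) were called higher and 3 of 11 oligodendrocyte markers lower. In the hemisphere contrast of PTE+ with PTE- mice, 9 of that list were tested. The others of the 11 passed the filter only through sham, so this count is no support beyond their levels. Of 9 meningeal and fibroblast markers, Slc47a1 (2.70 ± 0.72) and Prg4 (1.39 ± 0.47) were called higher and Igfbp2 (-0.31) lower in injured minus sham mice. Slc47a1 (-1.56 ± 0.60) and Prg4 (-1.24 ± 0.39) were among the markers called lower ipsilaterally in sham, with those named beside Megf10. Over all libraries the medians of Slc47a1 and Prg4 were 2.46 and 0.7 TPM, under the filter. They may have passed it only through the groups where they are high, so their calls in any comparison are no support beyond their levels. In the hemisphere contrast of PTE+ with PTE- mice, in which Il33 was called, Slc47a1 (-2.18) was called lower. The oligodendrocyte marker Aspa (0.65) and the astrocyte marker Gjb6 (0.33) were called higher in that contrast. The part of these markers in the values of the members and list genes was not tested.

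For each gene the 3 most like it were sought over 10235 genes, by the smaller of the Pearson correlations over 19 ipsilateral and 18 contralateral libraries. These correlations share library effects and are descriptions. Megf10 was most like Kidins220 (0.914), Clasp2 and Igdcc4, and Chrdl1 most like Grm3 (0.862), Akt2 and Elmo2. Mertk was most like Ncam1 (0.825), Dusp6 and AW549877, and Gpc4 most like Ube4b (0.802), Pld2 and Spry4. The thrombospondins had no close neighbour in common: Thbs1 was most like Slc38a2 (0.747) and the collagen genes Col1a2 (0.681) and Col3a1 (0.672), Thbs2 like Col23a1 (0.803), Cyp39a1 and Slc43a3, and Thbs4 like Slc35e3 (0.740), Slc38a1 and Wrb. Sparc (Gatm, 0.694, Ube2l6, Cd74) and Sparcl1 (Kcnj16, 0.650, Atp6ap1, Cyfip1) had the weakest likenesses. Among the members, the 3 thrombospondins correlated with each other at 0.53 to 0.57 over the 19 ipsilateral libraries, and at -0.06 to 0.44 over the 18 contralateral ones. Without mouse 9_14 the ipsilateral values were 0.50 (Thbs1 with Thbs2), 0.46 (Thbs1 with Thbs4) and 0.33 (Thbs2 with Thbs4), and the likeness of Thbs4 to Slc35e3 was 0.321, to Slc38a1 0.676 and to Wrb 0.504.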

How the data were processed

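Astrocyte RNA was measured in 37 libraries. By the study's methods the authors used SMART-Seq v4 chemistry, Trim Galore 0.6.4 and RSEM 1.2.28 with Bowtie2 2.4.1 on mm10, and they deposited TPM for each Ensembl gene, with a separate table for either hemisphere. The annotation release is not given in the sources used here. TPM keep no depth, so read depth and counting error are unknown. Symbols were found for 21856 identifiers, and 119 had none.

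Values were taken as log2(TPM + 1), which understates fold changes near the pseudocount, and fitted with limma 3.58.1 (R 4.3.3) with a variance trend. Genes entered a fit if 1 of its groups averaged over 5 TPM. There were 8 fits within a hemisphere and 5 between hemispheres, the latter with mouse as a block. A call needed both p under 0.05 (unadjusted) and a 1.2-fold change. Members were also tested exactly, by two-sided permutation of libraries or sign flips of mice. The text names all members, list genes called (at most 4 per list and comparison, by p) and the 3 genes most like each member, except for Gpc6, whose result is not reported here. The members and lists were chosen with earlier results of these data known. The difference by mouse name and the values of single members without mouse 9_11 were added after seeing the data. So were the list, marker and mouse name fits, correlations and further Thbs1 values without mouse 9_14. The fits were tested on simulated data. Labels name the mouse, which pairs the hemispheres: expression deviations within a mouse correlated at a median of 0.396 (0.041 to 0.675, above 0.1 in 16 of 17 mice, 10874 genes), against -0.072 in 114 pairs of different mice. Python 3.11.15, numpy 2.4.6, pandas 2.3.3 and matplotlib 3.10.9 were used.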

Additional observations from a re-analysis of the deposited data

Results flagged for a closer look

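Of 60 combinations of a gene and a group of 4 to 10 libraries, 3 held a library far from the others of its group by Dixon's gap on log2(TPM + 1), as many as chance gives at 1 in 20. Thbs4 in ipsilateral PTE- mouse 9_14 was at 0.0 TPM, the lowest of 10. Megf10 in ipsilateral sham mouse 9_11 was at 18.3 TPM, the highest of 5. Mertk in contralateral PTE- mouse 9_16 was at 165 TPM, the highest of 9.

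The difference between hemispheres in Thbs2 was larger in injured than in sham mice by 1.26 on the log2(TPM + 1) scale (limma unadjusted p = 0.0229, adjusted p = 0.742; higher ipsilaterally in 9 of 12 injured and 2 of 5 sham mice), where 6.27% of all genes were called. Thbs2 passed the TPM filter only through the groups that make this difference positive, so the p is no support beyond its levels, and without sham mouse 9_10 the value was 0.82 (limma unadjusted p = 0.120).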

How the results depend on the processing

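Of 2090 values of single members under an alternative, 1966 kept their call and moved by at most 1 SE or stayed called, 48 gained a call, 13 lost it, 63 moved by more than 1 SE without a call, and 0 called values changed sign. The counts of members called that moved by over 1.5 times are as follows, and the cause was not tested. Where the share of all genes called under a setting is not given, its count is shown here without a background and is no result about the members. Without the mouse block (no paired hemispheres), the counts were 0 in sham, 0 in PTE-, 1 in PTE+ and 0 in injured minus sham mice. With array weights they were 1 in ipsilateral CCI against sham, 1 in PTE- against sham and 1 in PTE+ against sham, 1 in contralateral PTE+ against PTE-, 3 in contralateral PTE+ against sham and 4 between hemispheres in PTE-. Quantile normalization gave 1 in ipsilateral CCI against sham, PTE- against sham, contralateral PTE+ against PTE- and the hemisphere contrast of PTE+ with PTE-, and 0 between hemispheres in sham. Median centring gave 1 in that contrast and 0 in sham. The mouse name as a covariate gave 1 in contralateral PTE+ against PTE- (Thbs4, 3.16% of all genes called) and 1 in PTE- against sham (Gpc6, 4.21%). With no TPM filter the counts were 1 in ipsilateral CCI against sham (1.9% of all genes called), 1 in ipsilateral PTE+ against sham (2.02%) and 2 in injured minus sham mice (5.31%). That setting also gave 1 in contralateral PTE- against sham, and a filter at 1 TPM gave 1 in ipsilateral PTE+ against sham. Thbs1, at a mean of 0.212 TPM in ipsilateral sham, could pass the filter at 1 TPM there only through PTE+. A call of Thbs1 under that filter is thus no support. With no fold threshold the count was 2 in injured minus sham mice, and at 1.5 it was 1 in PTE- and 0 in sham. Between hemispheres in PTE-, no TPM filter (4.44% of all genes called), quantile normalization and no fold threshold each gave 3 in place of 2.

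Leaving out 1 mouse at a time gave 0 to 1 members in each within-hemisphere comparison (0 to 0 in ipsilateral PTE+ against PTE-), 0 to 1 between hemispheres in sham, 0 to 3 in PTE+, 0 to 4 in injured minus sham mice and 0 to 1 in PTE+ minus PTE-. Further calls were gained without 1 library. The share of all genes called also moved with the mouse left out. Where that share is not given, these ranges and calls have no background and are no result about the members. Without sham mouse 8_15, Thbs2 was called in contralateral CCI against sham (-1.001) and PTE- against sham (-0.92), where it passed the filter only through sham (6.46 TPM, against 2.81 and 2.90 TPM), so these calls are no support. Without sham mouse 8_16, Gpc4 was called in contralateral CCI (-0.44) and PTE+ against sham (-0.52) and Sparcl1 in injured minus sham mice (0.29). Without sham mouse 9_11, Megf10 was called in ipsilateral PTE+ against sham (0.61), and Megf10 (0.56), Gpc4 (0.47) and Sparcl1 (0.28) in injured minus sham mice. Without sham mouse 9_10, Gpc6 was called in contralateral PTE- against sham (-0.39). Without PTE+ mouse 9_17, contralateral Gpc6 was called in CCI (-0.40) and PTE+ against sham (-0.59) and Thbs4 in PTE+ against PTE- (-1.17), as it was without PTE+ mouse 9_18 (-1.20). Without PTE+ mouse 8_10, Chrdl1 was called in the hemisphere contrast of PTE+ with PTE- (0.75). The sham hemisphere call of Megf10 was lost without mouse 8_15 (-0.38), 9_9 (-0.40) or 9_10 (-0.30). Where a group is left with 2 PTE+ mice, they are assumed to vary like the other groups. PTE- mice other than 9_14 were not left out. Depth is unknown, so low values such as those of Thbs1 have no counting interval.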
